A study of Mus musculus with 4 samples.

Results

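The Hox genes are the homeobox genes that lie in 4 clusters, Hoxa on mouse chromosome 6, Hoxb on chromosome 11, Hoxc on chromosome 15 and Hoxd on chromosome 2. They were taken here as every probe whose annotated symbol starts with Hoxa, Hoxb, Hoxc or Hoxd and a number, which gave 38 genes and 50 probes of the 25697 probes on the Illumina MouseRef-8 arrays. The probes covered 10 Hoxa genes (17 probes), 10 Hoxb genes (13 probes), 9 Hoxc genes (11 probes) and 9 Hoxd genes (9 probes). RNA came from 2 lines of mouse embryonic fibroblasts (MEFs) that lacked H3f3b (H3f3b -/-, called KO) and from 2 lines of wild-type MEFs (H3f3b WT/WT, called WT), with 1 array a line. H3f3b is 1 of the genes that encode the histone variant H3.3. All 4 lines were C57BL6J, came from littermate embryos at day 12.5 after removal of the head and visceral organs, and carried a stably transduced pBabe puro vector. The null allele was constitutive, made by crossing floxed mice to Zp3Cre mice, whose Cre is active in oocytes, and then intercrossing heterozygous offspring.

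Hox proteins are homeodomain transcription factors that give cells a position along the head-to-tail axis and along the limb. Genes at the 3' end of a cluster (low paralogue numbers) are used early and far forward in the embryo, and genes at the 5' end (high numbers) late, in the tail region, the distal limb and the genital tubercle. Paralogues are the genes with the same number in different clusters. Cultured fibroblasts are known to keep a Hox pattern that reflects the body site they came from, and the clusters are a textbook target of Polycomb repression and Trithorax activation.

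To show the DNA at the start of genes whose values are described below, 250 bases before the start of 4 of them are given from RefSeq (build GRCm38.p6), 5' to 3' on the gene's strand, with each CG dinucleotide in capitals. The first 2 belong to genes that were higher on both KO arrays (Hoxa5 and Hoxa7), and the other 2 to genes with lower KO means (Hoxd10 and Hoxd13). The positions are chr6:52204588-52204837 (minus strand) for Hoxa5, chr6:52218574-52218823 (minus strand) for Hoxa7, chr2:74691641-74691890 (plus strand) for Hoxd10 and chr2:74667975-74668224 (plus strand) for Hoxd13.
Hoxa5: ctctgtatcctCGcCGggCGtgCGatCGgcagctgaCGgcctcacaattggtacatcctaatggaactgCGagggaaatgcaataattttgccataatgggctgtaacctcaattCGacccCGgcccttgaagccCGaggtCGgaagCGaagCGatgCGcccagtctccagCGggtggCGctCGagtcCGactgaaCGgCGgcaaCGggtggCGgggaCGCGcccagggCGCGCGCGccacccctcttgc
Hoxa7: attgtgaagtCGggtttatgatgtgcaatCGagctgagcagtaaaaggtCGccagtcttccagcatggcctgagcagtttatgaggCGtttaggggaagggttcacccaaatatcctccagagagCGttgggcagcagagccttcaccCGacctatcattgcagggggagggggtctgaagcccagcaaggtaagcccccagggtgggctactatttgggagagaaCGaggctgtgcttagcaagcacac
Hoxd10: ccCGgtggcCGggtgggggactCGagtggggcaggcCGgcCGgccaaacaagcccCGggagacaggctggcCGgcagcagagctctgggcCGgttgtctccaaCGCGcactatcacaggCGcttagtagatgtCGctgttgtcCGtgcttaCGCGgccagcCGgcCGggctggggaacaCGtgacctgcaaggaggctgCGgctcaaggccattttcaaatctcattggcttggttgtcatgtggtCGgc
Hoxd13: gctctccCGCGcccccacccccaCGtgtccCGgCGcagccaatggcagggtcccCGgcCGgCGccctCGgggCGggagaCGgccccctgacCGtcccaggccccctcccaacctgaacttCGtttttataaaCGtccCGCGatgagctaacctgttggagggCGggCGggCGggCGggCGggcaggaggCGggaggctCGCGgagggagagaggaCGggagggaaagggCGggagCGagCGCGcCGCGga

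These 4 stretches held 28 CG dinucleotides for Hoxa5, 7 for Hoxa7, 20 for Hoxd10 and 31 for Hoxd13. Of the 38 Hox genes, 22 matched the RefSeq promoter table (24 starts). Their median was 12.5 CG dinucleotides in 250 bases, against 6.0 over all 32851 starts in the table, and their median GC content was 58.6%, against 52.4%. The letters AGGTCA, the core letters bound by retinoic acid receptors, were found on either strand before Hoxb4, Hoxc4, Hoxd3, Hoxd4, Hoxd8 and Hoxd10, and in 14% of all starts. TATAAA, the TATA box, was found before Hoxa10, Hoxb8, Hoxd4 and Hoxd13, and in 12.4% of all starts. TAATTA, a core that many homeodomains bind, was found before Hoxd11 (4.84% of all starts), and TGATNNAT, a composite of Hox and Pbx that can overlap it, before Hoxa2, Hoxb1, Hoxb8 and Hoxd11 (7.68%). TGACAG, the core of Meis proteins, was found before Hoxa2 and Hoxa3 (15.9%). Such matches describe letters only. None of the 4 windows printed held TAATTA, TGATNNAT or TGACAG.

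The lines stood apart in H3f3b as labelled. Its signal was 97.3 and 98.7 on the KO arrays, not detected on either, against 1735.7 and 1686.2 on the WT arrays (log2 difference -6.56 ± 0.17 (SE), adjusted p = 3.05e-05 by limma). Mean probe signal was 381.36 and 381.76 on the KO arrays and 290.72 and 294.36 on the WT arrays, and 43.59% to 44.92% of probes were detected on an array. The fibroblast markers Col1a1, Thy1 and Vim had signals of 6404.2 to 13170.3 on all 4 arrays. Genes of the sex chromosomes were mixed among the lines. Xist had signals of 181.0 and 107.4 in KO and 95.8 and 86.8 in WT, Eif2s3y of 98.0 (not detected) and 244.0 in KO and 165.3 and 134.9 in WT. Uty was detected on all 4 arrays and Kdm5d on the WT arrays only. On KO 1 the log2 value of Uty was 4.79, where the dimmest detected value was 4.78. The authors show an XX karyotype from line KO1, and line sex was not taken from these genes. The few arrays limit the precision of what follows. With 2 against 2 arrays an exact permutation test cannot go below p = 0.333, so the limma model over all probes was used. Its errors combine the spread between these lines with the spread typical of all probes tested, and cover no other lines. A gene whose lines lie far apart thus gets a smaller SE than its own lines alone would give.

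Of the 38 Hox genes, 25 were detected (detection p below 0.05) on at least 1 array, 17 on all 4 arrays and 13 on none. KO 1 and KO 2 had 22 and 20 detected Hox genes, and WT 1 and WT 2 had 20 and 19. Hoxa2, Hoxa5, Hoxa7, Hoxa9 and Hoxa13 were detected on every array, as were Hoxb2 and Hoxb4 to Hoxb7, Hoxc6, Hoxc9 and Hoxc10, and Hoxd8, Hoxd10, Hoxd12 and Hoxd13. Hoxa4 was detected on both KO arrays and on neither WT array. Hoxa10 was not detected on WT 1, and Hoxd9 was not detected on KO 2.

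**Figure D1:**
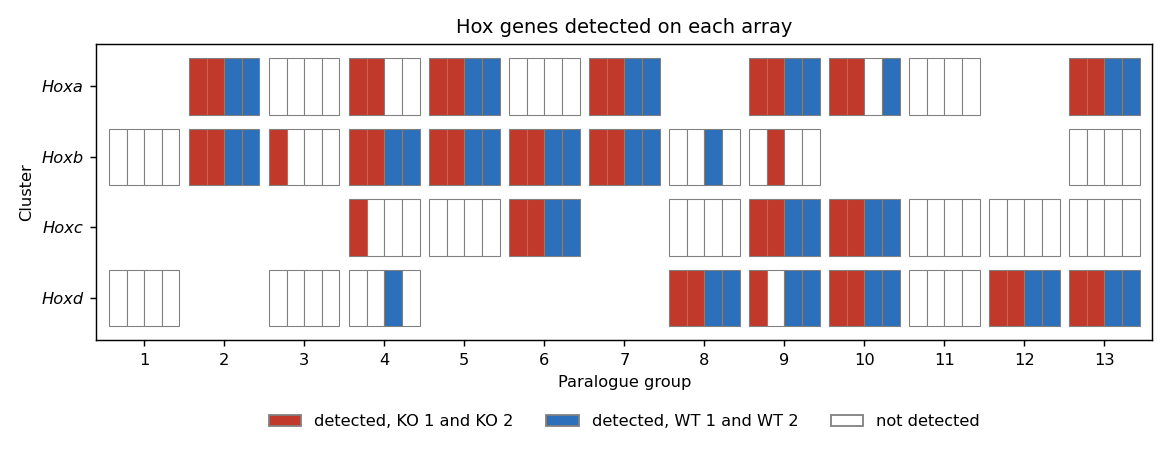
Detection of the 38 Hox genes, with cluster on the vertical axis and paralogue group on the horizontal axis. Each gene is a box of 4 cells (KO 1, KO 2, WT 1, WT 2 from left to right), filled where at least 1 of its probes was detected, and 17 boxes are filled on all 4 arrays.

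Another 5 genes were detected on 1 array only. Hoxb3 (signal 118.1) and Hoxc4 (121.5) passed on KO 1, Hoxb9 (116.1) on KO 2, and Hoxb8 (94.5) and Hoxd4 (99.4) on WT 1. The 13 genes detected on no array were Hoxa3, Hoxa6, Hoxa11, Hoxb1, Hoxb13, Hoxc5, Hoxc8, Hoxc11, Hoxc12, Hoxc13, Hoxd1, Hoxd3 and Hoxd11. Their probes lay between 86.3 and 112.2 on the KO arrays and between 78.0 and 95.5 on the WT arrays. Probes with a high detection p, which are only a part of the undetected probes, had median signals of 97.1 and 94.6 on KO 1 and KO 2. On WT 1 and WT 2 these medians were 80.9 and 84.4. For these genes a level in either genotype was not detectable, which does not show that it was absent.

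Detection on at least 2 arrays left 20 Hox genes for the test, 7 Hoxa, 5 Hoxb, 3 Hoxc and 5 Hoxd. None passed the adjusted test (limma, adjusted p from 0.452 to 0.986), where 0.0124% of the 8047 genes tested did, that 1 gene being H3f3b. At an unadjusted p below 0.05, 9 Hox genes were higher in KO (4.59% of all genes) and 3 were lower (3.54% of all genes). Both KO arrays lay above both WT arrays for 9 Hox genes, against 21.0% of all genes, and below them for 3, against 17.1%. These were the same 12 genes. Hoxa4, among the 9 higher ones, passed the detection filter through the KO arrays alone. The counts describe a list that was chosen with earlier results known, and no test of the list was made.

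The median of the Hoxd genes had the opposite sign to those of the other clusters. The median log2 difference, KO minus WT, was 0.82 over Hoxa (6 of 7 genes higher), 0.60 over Hoxb (5 of 5 higher), 0.97 over Hoxc (3 of 3 higher) and -0.86 over Hoxd (5 of 5 lower). Over all genes the median was 0.014, and 52.35% of them were higher. A difference beyond 0.5 in either direction was seen for 15 of the 20 Hox genes (11 higher, 4 lower) and for 7.92% of all genes. Hoxa4, which passed the detection filter through the KO arrays alone, counts among the 11 and in the Hoxa median. Hoxa5 had the second-largest increase of all genes. Whether the clusters differ from one another was not tested. With arrays scaled to a common median instead of quantile normalized, the median of all genes moved to 0.28, and relative to it 13 of the 15 Hoxa, Hoxb and Hoxc genes were higher and 5 of 5 Hoxd genes lower. In that fit 11 Hox genes were higher and none lower by limma at an unadjusted p below 0.05 (23.8% of all genes in either direction), and 12 had separate groups with KO above and 2 with KO below (56.8% and 4.35% of all genes). On the values as scaled by the authors, 9 Hox genes were higher and 4 lower at that p (11.6% of all genes), and 9 were separate above and 5 below (18.4% and 27% of all genes). In RNA from a whole culture, more cells of a type and more RNA per cell cannot be told apart.

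**Figure D2:**
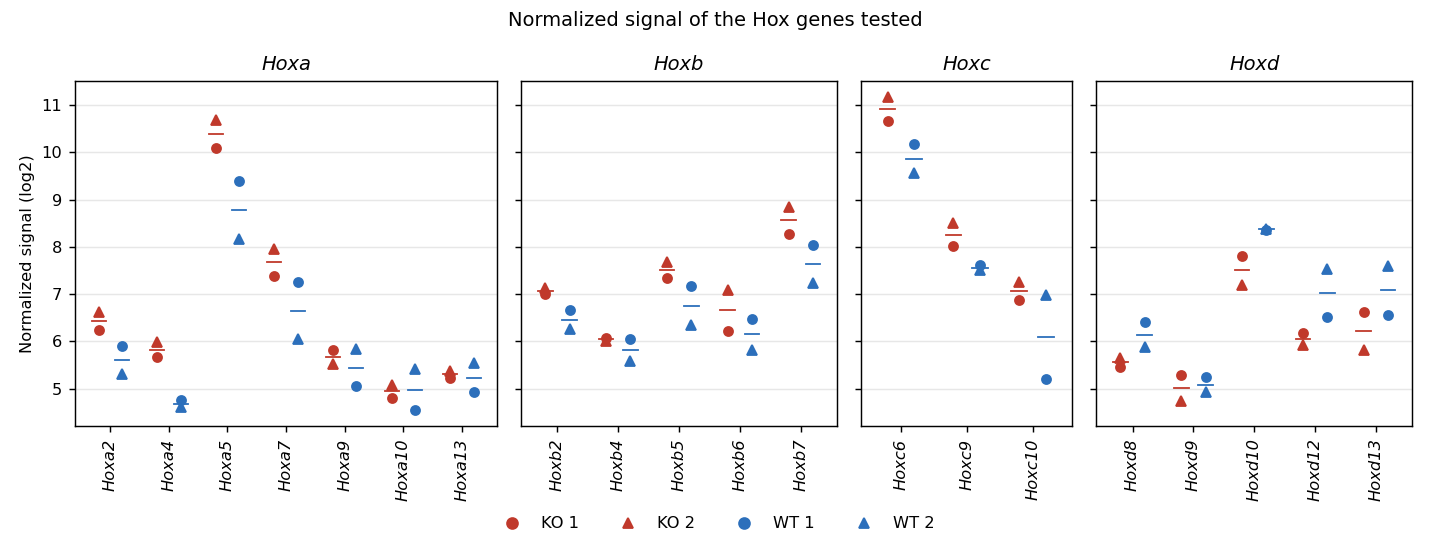
Normalized log2 signal of the 20 Hox genes tested, by cluster, with the KO arrays left of the WT arrays. Points are single arrays (circles for line 1, triangles for line 2), short lines are the means of 2 arrays, and in Hoxa, Hoxb and Hoxc the 9 genes with both KO points above both WT points stand beside 3 Hoxd genes with both below.

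In Hoxa, the 4 tested genes of the forward (3') side lay above WT on both KO arrays. Hoxa5, a regulator of the neck and upper thorax and of the lung, had signals of 1366.8 and 1987.5 on the KO arrays, against 645.9 and 314.3 on the WT arrays. On the normalized log2 scale it had 10.10 and 10.68 in KO and 9.40 and 8.16 in WT. KO 2 was highest and WT 2 lowest, and the gap between the WT lines (1.24) was close to the difference between the groups. Hoxa5 differed by 1.61 ± 0.41 (SE), which is 3.05-fold, with an adjusted p of 0.542, and by 0.99 without WT 2.

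Hoxa4, which patterns the neck vertebrae, had signals of 142.4 and 155.2 on the KO arrays, against 93.5 and 93.7 on the WT arrays. Both WT values were not above background (detection p 0.0589 and 0.1604), so its ratio has only a bound. On the normalized scale used here it was at least 2.01-fold higher in KO, set by the dimmest detected probe of each WT array. Its measured means were 5.83 ± 0.24 in KO and 4.68 ± 0.11 in WT (log2, SD, n = 2 each), a difference of 1.15 ± 0.19 (SE), and the adjusted p was 0.452, the lowest of the Hox genes. Without background correction the difference was 0.40, and those of Hoxa7, Hoxa2, Hoxb5, Hoxb2, Hoxb6, Hoxc10, Hoxd8, Hoxd12 and Hoxd13 were 0.64, 0.37, 0.47, 0.34, 0.28, 0.47, -0.25, -0.55 and -0.49.

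Hoxa7, a gene of the thoracic region, had 7.39 and 7.96 in KO and 7.25 and 6.05 in WT on the log2 scale. WT 1 lay just below KO 1, and without WT 2 the difference of 1.02 ± 0.40 (SE, adjusted p = 0.589) was 0.42, and without WT 1 it was 1.64. Hoxa2, which specifies the second branchial arch, had 6.23 and 6.62 in KO and 5.91 and 5.31 in WT, a difference of 0.82 ± 0.25 (SE, adjusted p = 0.543), or 0.52 without WT 2. The groups did not overlap for either gene. A dimmer Hoxa2 probe, with signals of 125.8 and 151.8 in KO and 111.0 and 97.4 in WT, gave 0.39 ± 0.33 (SE).

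The 3 tested genes of the 5' side of Hoxa showed overlapping groups. Hoxa9 had 5.83 and 5.52 in KO and 5.05 and 5.84 in WT, Hoxa10 had 4.81 and 5.07 in KO and 4.55 and 5.41 in WT, and Hoxa13, a gene of the digits and genital tubercle, had 5.23 and 5.37 in KO and 4.94 and 5.54 in WT. In each of the 3 both extremes were WT arrays, with WT 2 highest and WT 1 lowest. Their differences were 0.23 for Hoxa9, -0.04 for Hoxa10 and 0.065 for Hoxa13, all smaller than their SE of 0.23 to 0.29, and each changed sign without 1 of the arrays (Hoxa9 to -0.17 without WT 1, Hoxa10 to 0.41 without WT 2, Hoxa13 to -0.24 without WT 1). A second probe gave -0.26 ± 0.21 (SE) for Hoxa9 and -0.11 ± 0.21 (SE) for Hoxa13, the other way from the first, and the remaining Hoxa9, Hoxa10 and Hoxa13 probes were not detected.

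In Hoxb, all 5 tested genes had a higher mean in KO, and WT 2 was the lowest array for each. Hoxb7 had signals of 443.0 and 619.8 on the KO arrays, against 291.9 and 199.6 on the WT arrays, or 8.28 and 8.85 against 8.04 and 7.23 on the log2 scale. Hoxb5, which acts in the thorax and in neural crest, had 272.1 and 319.6 in KO, against 193.3 and 142.7 in WT. Hoxb2, a gene of the hindbrain, had 232.0 and 243.2 in KO, against 155.5 and 139.2 in WT. For these 3 genes the groups were separate, and limma gave differences of 0.93 ± 0.32, 0.75 ± 0.29 and 0.60 ± 0.20 (SE) with adjusted p of 0.567, 0.589 and 0.562. Without WT 2 they were 0.52, 0.34 and 0.41, and that of Hoxb5 was 1.17 without WT 1.

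The other 2 Hoxb genes overlapped between the groups. Hoxb6 had 6.23 and 7.10 in KO and 6.47 and 5.83 in WT on the log2 scale, so that KO 1 lay below WT 1. Its difference of 0.52 ± 0.33 (SE) was 0.084 without KO 2, 0.20 without WT 2, 0.95 without KO 1 and 0.85 without WT 1. Hoxb4, known for its use in expanding blood stem cells, had 6.07 and 6.02 in KO and 6.05 and 5.59 in WT. Apart from WT 2 its 3 values lay within 0.054 of one another, and without WT 2 the difference of 0.22 ± 0.21 (SE) was -0.0034.

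In Hoxc, Hoxc6 carried a large difference. Hoxc6, a thoracic gene, had signals of 1955.8 and 2782.1 on the KO arrays, against 1049.6 and 704.5 on the WT arrays, or 10.67 and 11.18 against 10.18 and 9.56 on the log2 scale. Its difference of 1.06 ± 0.27 (SE) is 2.08-fold, with an adjusted p of 0.542, and it lay between 0.73 and 1.37 with any 1 array left out. Hoxc9, which acts in the thorax and in the motor neurons of that level, had 383.3 and 509.4 in KO, against 235.2 and 227.9 in WT. The WT lines were close together here, and the difference was 0.70 ± 0.22 (SE, adjusted p = 0.543), or 0.44 without KO 2.

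Hoxc10, a lumbar and hindlimb gene, had signals of 220.0 and 258.9 on the KO arrays, against 102.3 and 180.9 on the WT arrays. On the log2 scale it had 6.88 and 7.25 in KO and 5.20 and 6.99 in WT, so the groups overlapped, with WT 1 far below the other 3 arrays. The difference of 0.97 ± 0.52 (SE, adjusted p = 0.726) was 0.081 without WT 1 and 1.88 without WT 2. A second Hoxc10 probe had 211.5 and 182.0 in KO, against 90.3 and 139.0 in WT, where WT 1 was again lowest and not detected, and gave 1.18 ± 0.49 (SE).

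In Hoxd, each of the 5 tested genes had a lower mean in KO, and 3 of them on both arrays. Hoxd10, a gene of the lumbar cord and hindlimb, had 7.82 and 7.19 in KO and 8.37 and 8.37 in WT on the log2 scale. The WT lines differed by 0.0062, and the difference between the groups was -0.87 ± 0.24 (SE, adjusted p = 0.542), or -0.55 without KO 2 and -0.54 under median scaling. The deposited signals of Hoxd10 were 345.7 and 251.5 in KO, against 348.3 and 348.9 in WT, so that before normalization KO 1 stood level with the WT arrays while the mean signal of the KO arrays was higher.

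Hoxd12 and Hoxd13 shape the digits and the genital tubercle. Hoxd12 had 6.18 and 5.93 in KO and 6.52 and 7.53 in WT, a difference of -0.97 ± 0.33 (SE, adjusted p = 0.567). The groups were separate after normalization, and the deposited signals overlapped (167.7 and 152.2 in KO, 148.0 and 229.0 in WT). Hoxd13 had 6.62 and 5.82 in KO and 6.57 and 7.59 in WT, with overlap, and a difference of -0.86 ± 0.39 (SE, adjusted p = 0.651). WT 2 was the highest array for both genes, and without it the differences were -0.47 for Hoxd12 and -0.35 for Hoxd13. Without WT 1 they were -1.49 and -1.38, and without KO 2 that of Hoxd13 was -0.46.

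Hoxd8 and Hoxd9 lie further toward the 3' end of the cluster. Hoxd8 had 5.46 and 5.65 in KO and 6.40 and 5.87 in WT on the log2 scale, with WT 1 highest and no overlap, while its deposited signals overlapped (134.7 and 139.6 in KO, 142.0 and 122.7 in WT). Its difference was -0.58 ± 0.23 (SE, adjusted p = 0.589), -0.32 without WT 1 and -0.35 under median scaling. Hoxd9 had 5.29 and 4.73 in KO and 5.24 and 4.93 in WT. A difference of -0.08 ± 0.24 (SE) was well inside the spread, and it was 0.19 without KO 2, 0.073 without WT 1 and 0.019 under median scaling.

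**Figure D3:**
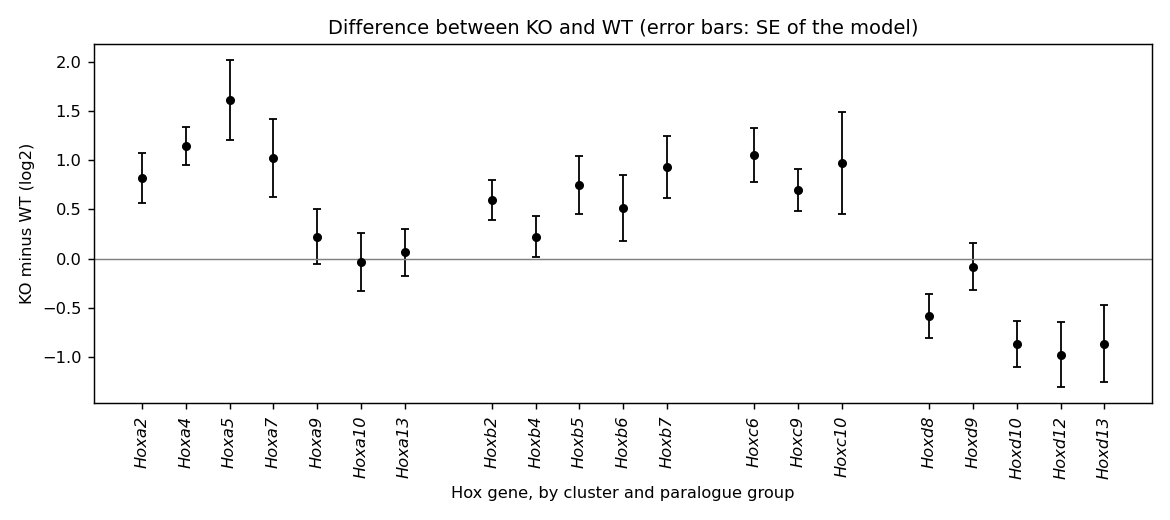
Log2 difference, KO minus WT, of the 20 Hox genes tested, ordered by cluster and paralogue group on the horizontal axis. Points are the fitted differences and bars the SE of the limma model on 2 against 2 arrays, with Hoxa5 at 1.61 the highest and Hoxd12 at -0.97 the lowest.

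Read across the clusters by paralogue group, the genes of groups 2 to 7 all had higher means in KO (10 of 10, 8 of them with separate groups), with a median difference of 0.87. Of all genes, 52.35% had a higher mean in KO and 21.0% had both KO arrays above both WT arrays. Hoxa4, among the 10 and the 8, passed the detection filter through the KO arrays alone. No Hoxd gene of paralogue groups 2 to 7 passed the detection filter, so those 10 genes came from Hoxa, Hoxb and Hoxc alone. In groups 8 to 13, 4 of 10 genes were higher and 6 lower, with a median of -0.06. Paralogues of 1 group had unlike differences there, several of them small. Those of Hoxa9, Hoxa10, Hoxa13 and Hoxd9 were smaller than their SE and changed sign with 1 array left out. In group 9 the differences were 0.23 for Hoxa9, 0.70 for Hoxc9 and -0.08 for Hoxd9. In group 10 they were -0.04 for Hoxa10, 0.97 for Hoxc10 (0.081 without WT 1) and -0.87 for Hoxd10. In group 13 they were 0.065 for Hoxa13 and -0.86 for Hoxd13. In the forward groups paralogues had the same sign and differed in size, with 0.82 for Hoxa2 and 0.60 for Hoxb2, 1.15 for Hoxa4 and 0.22 for Hoxb4, 1.61 for Hoxa5 and 0.75 for Hoxb5, 0.52 for Hoxb6 and 1.06 for Hoxc6, and 1.02 for Hoxa7 and 0.93 for Hoxb7. Differences between paralogues were not tested. Cluster and paralogue group overlap as labels here, since all tested Hoxd genes belong to groups 8 to 13.

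One order of the 4 arrays recurred from gene to gene. For 10 of the 20 Hox genes KO 2 was the highest array and WT 2 the lowest, an order that 10.4% of all genes had. The 10 were Hoxa2, Hoxa4, Hoxa5, Hoxa7, Hoxb2, Hoxb5, Hoxb6, Hoxb7, Hoxc6 and Hoxc9. Hoxa4 among them passed the detection filter through the KO arrays alone. WT 2 was the lowest array for 11 Hox genes, against 31.35% of all genes. For 4 of the 5 Hoxd genes KO 2 was the lowest array instead, an order not counted over all genes. WT 2 was the highest array for 6 of the 20 Hox genes, 3 in Hoxa and 3 in Hoxd, against 28.95% of all genes.

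**Figure D4:**
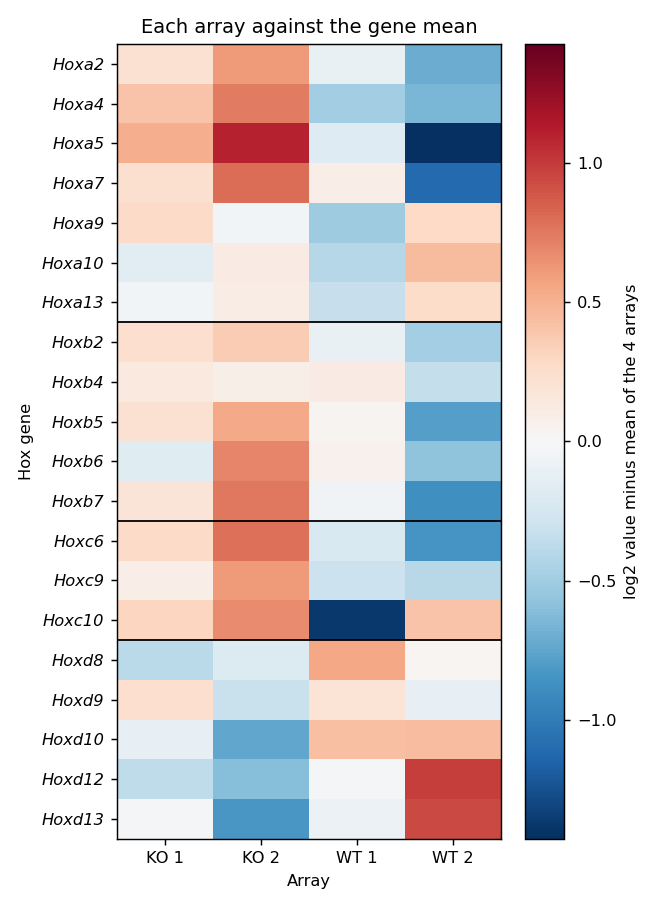
Log2 value of each array minus the mean of the 4 arrays, for the 20 Hox genes tested (rows, by cluster) on KO 1, KO 2, WT 1 and WT 2 (columns). Red is above and blue below the mean of the gene, and the extremes are KO 2 at 1.09 and WT 2 at -1.43, both for Hoxa5.

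The lines of 1 genotype also differed from each other along the axis. WT 2 lay below WT 1 for all 10 genes of groups 2 to 7, with a median gap of -0.63 on the log2 scale (WT 2 minus WT 1), and above WT 1 for 7 of the 10 genes of groups 8 to 13, with a median gap of 0.69. KO 2 lay above KO 1 for 9 of the 10 genes of groups 2 to 7 (median 0.45, KO 2 minus KO 1) and for 5 of the 10 genes of groups 8 to 13 (median -0.06). For 11 of the 20 genes the gap between the WT lines was larger than the difference between the genotypes, and for 5 genes the gap between the KO lines was. The same counts were not made over all genes, so these have no background to be read against.

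Leaving out single arrays moved several of these counts and medians. Without WT 2 the median difference was 0.52 over Hoxa and -0.47 over Hoxd, and at an unadjusted p below 0.05 the Hox genes counted 6 higher and 2 lower, where 9.59% of all genes passed in either direction. Without KO 2 those counts were 3 higher and none lower by limma, where 3.78% of all genes passed, with a Hoxd median of -0.55. The Hox genes with every KO array in the fit below every WT array numbered 3 of 20 with all arrays, 7 without WT 1 and 5 without KO 1. The shares of all genes were 17.1%, 36% and 29.8%, so that none of these counts stood above the background. No Hox gene passed the adjusted test with any 1 array left out, and the lowest adjusted p was 0.0557, without WT 1.

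**Figure D5:**
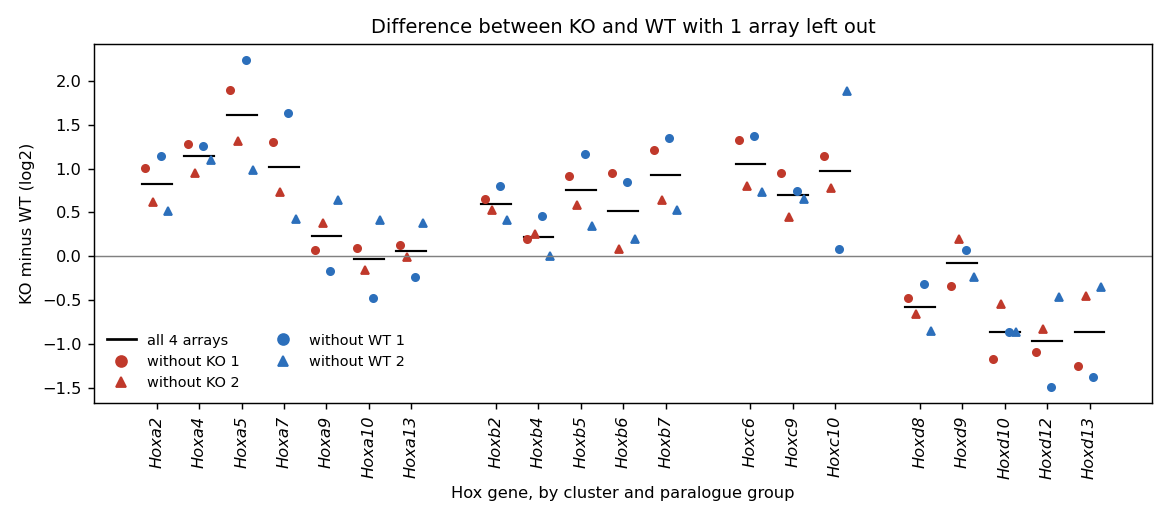
Log2 difference, KO minus WT, of the 20 Hox genes with all 4 arrays (black lines) and with 1 array left out (red for a KO array, blue for a WT array), by cluster on the horizontal axis. Hoxa5 spans 0.99 to 2.23, and 15 of the 20 genes keep their sign in every fit.

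The TALE homeodomain proteins bind DNA together with Hox proteins. Of 9 listed genes 7 were tested, and 5 were higher and 2 lower in KO (median 0.19, none past the adjusted test). Meis2 had signals of 1074.7 and 1269.5 on the KO arrays, against 646.0 and 517.5 on the WT arrays, a log2 difference of 0.64 ± 0.20 (SE), and was separate between the groups with KO 2 highest and WT 2 lowest. Pknox2 differed by -0.53 ± 0.19 (SE), with 5.26 and 5.04 in KO and 5.57 and 5.79 in WT. Those 2 were the members with an unadjusted p below 0.05.

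Retinoic acid and Cdx factors set Hox expression along the axis of the embryo. Of 17 listed genes 7 were tested, 2 higher and 5 lower in KO (median -0.25), and none passed the adjusted test. Rara (a retinoic acid receptor) was not above background on either KO array (log2 4.58 and 4.45) and had 5.02 and 5.20 in WT. On this normalized scale Rara was at least 1.25-fold lower in KO (limma, adjusted p = 0.543). Crabp1 and Crabp2, which bind retinoic acid in the cytoplasm, differed by -0.58 ± 0.22 and -0.79 ± 0.31 (SE). Cdx1, Cdx2, Cdx4 and Cyp26a1 were among the genes that did not pass the detection filter.

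Polycomb and Trithorax proteins hold Hox genes off and on. Of 12 tested Polycomb genes 2 were higher and 10 lower (median -0.15), and of 9 tested Trithorax and MLL genes 3 were higher and 6 lower (median -0.08). In neither list did a member have an unadjusted p below 0.05.

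Other factors of limb and trunk position ran mostly lower in KO, 10 of 13 tested of 29 listed (median -0.44), and none passed the adjusted test. Msx1, a homeobox gene of the limb tip, had signals of 300.6 and 236.9 on the KO arrays, against 360.8 and 466.6 on the WT arrays, a log2 difference of -1.34 ± 0.25 (SE). Twist1 and Prrx1, factors of limb mesenchyme, differed by -0.78 ± 0.19 and -0.66 ± 0.18 (SE). Tbx2, a repressor that acts in the limb, had 5.14 and 5.23 in KO, against 4.70 and 4.59 in WT, where it was not above background on either array. On this normalized scale Tbx2 was at least 1.29-fold higher in KO (limma, adjusted p = 0.543). Tbx5 and Tbx4, which mark forelimb and hindlimb, and Pitx1, which marks the hindlimb, did not pass the detection filter.

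The tested genes nearest to the clusters had a median close to that of all genes. Among the 24 nearest neighbours with a tested probe, 3 on either side of each cluster in the RefSeq order (GRCm38.p6), 11 were higher and 13 lower in KO. Their median was -0.05, with a range from -0.40 (Rbm45, 11 genes from Hoxd) to 0.49 (Smug1, beside Hoxc). Smug1, a DNA repair glycosylase, was the 1 neighbour with an unadjusted p below 0.05 (0.49 ± 0.17, SE). Skap2, beside Hoxa, differed by 0.41 ± 0.21, Calcoco1, next to Hoxc13, by 0.40 ± 0.18, and Snx11, the nearest tested gene on the Hoxb1 side, by 0.20 ± 0.17 (SE). Around Hoxd the nearest tested genes, Atp5g3, Atf2, Wipf1, Nfe2l2, Agps and Rbm45, were 3 to 11 genes away and lay between -0.40 and 0.15.

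Markers of other cells in an embryo also differed in mean between the genotypes. All 9 tested macrophage markers were higher in KO (median 0.58, from 0.02 to 0.88), with a summed normalized level of 20124 and 15508 on the KO arrays, against 13449 and 11572 on the WT arrays. Lyz2 made up most of each sum (log2 13.63 and 13.26 in KO, 13.12 and 13.04 in WT). Itgam did not pass the detection filter, and Cd68 and Csf1r were not analysed here. Of the muscle markers, Acta1 and Des passed the filter and summed to 2023 and 2616 in KO, against 1237 and 758 in WT, while Myod1, Myf5, Myog and Ckm did not pass. Acta1 had KO 2 highest and WT 2 lowest, like the 10 Hox genes above. Of the endothelial markers only Emcn was tested, with 6.20 and 7.08 in KO and 5.39 and 4.58 in WT, and Pecam1, Cdh5, Kdr, Tek, Tie1 and Esam did not pass the filter. Emcn was not above background on WT 2. Of the epithelial markers 3 were tested, summing to 103 and 91.3 in KO and 72.6 and 75.9 in WT, with Cdh1 not past the filter. Krt18 and Cldn4 passed the filter through the KO arrays alone, so their WT values in these sums were not above background. Krt8, the third, had a lower mean in KO (-0.14). The neural markers Stmn2 and Nes summed to 730 and 722 in KO and 350.0 and 442.0 in WT, with Sox2 and Tubb3 not past the filter. The cartilage markers Sox9 and Col2a1 summed to 106 and 170.0 in KO and 155 and 57.7 in WT, with Acan and Comp not past the filter. Col2a1 was not above background on WT 2. Of 9 tested fibroblast markers 8 were lower in KO (median -0.23), with sums of 30917 and 30393 in KO and 33170 and 29102 in WT. Col1a1, Thy1 and Vim made up most of those sums. What these cells contribute to the Hox values was not tested.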

How the data were processed

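Total RNA of 2 H3f3b KO and 2 WT MEF lines was hybridised to 4 Illumina MouseRef-8 arrays. The authors deposited non-normalized probe intensity values from GenomeStudio with a detection p-value per probe and array, and a table of intensity values that had been scaled so that every array has the same mean (337.05), which was used as an alternative. Aligners and genome builds do not apply. Columns of the authors' own comparisons were not used.

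The intensity values were background-corrected with normexp, using the detection p-values, given an offset of 16, quantile normalized and taken to log2 with neqc in limma 3.58.1 (R 4.3.3), so that log2 values here differ from the deposited intensities. Probes with a detection p below 0.05 on at least 2 of 4 arrays were kept (11552 probes), KO was compared with WT by lmFit and eBayes, and p-values were adjusted by Benjamini-Hochberg over those probes at a threshold of 0.05. The fitted differences were checked on simulated data with independent noise, and that check set no requirement on the p-values. Each of 8047 genes was represented by its brightest tested probe. Of 25697 probes, 23978 had 1 gene symbol in the platform annotation and 1719 had none. The p-values are two-sided, and the errors behind them combine the spread between lines of 1 genotype with the spread typical of all probes tested.

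Hox members, gene lists and marker lists were chosen with earlier results of these data known. Every Hox gene is named. Values per array are given for genes detected on at least 2 arrays, errors and adjusted p for those with an unadjusted p below 0.05 or among the 6 largest differences, and from other lists at most 4 members with an unadjusted p below 0.05. Promoter bases come from RefSeq, and motifs were searched in the 250 bases before each start. Replicate numbers were not used to pair lines. Alternatives were no background correction, an offset of 50, median scaling, the deposited scaled values, no detection filter, a stricter one (p below 0.01 on 4 arrays), eBayes with trend and robust variances, a replicate block, the mean over probes of a gene, and each array left out.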

Additional observations from a re-analysis of the deposited data

How the results depend on the processing

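No Hox gene passed the adjusted test under any alternative, and the lowest adjusted p was 0.0557 (without WT replicate 1). Over all probes, 1 passed with the settings reported, 0 with the stricter filter, 25 with trend and robust variances, and between 1 and 28 with 1 array left out (28 without WT 1, 2 without KO 2). The line numbers did not pair the samples (correlation of same-numbered deviations -0.036 over 11552 probes, -0.47 over the 20 Hox genes), and with the replicate block 3 probes and no Hox gene passed.

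The median Hox difference of 0.56 was 0.31 without background correction, 0.83 under median scaling, 0.26 on the deposited scaled values, 0.14 with no detection filter, and 0.41 to 0.78 with 1 array left out. For Hoxa (0.82) it was 0.37 without background correction, 0.53 with an offset of 50, 0.28 on the scaled values, 0.17 with no filter, and 0.52 to 1.14 with 1 array left out. For Hoxb (0.60) it was 0.34 without background correction, 0.87 under median scaling, 0.31 on the scaled values, 0.26 with no filter, and 0.34 to 0.91 with 1 array left out (without WT 2 and without KO 1). For Hoxc (0.97) it was 0.53, 0.66 with the larger offset, 1.21 under median scaling, 0.55 on the scaled values, 0.17 with no filter, and 0.73 to 1.14 with 1 array left out. For Hoxd (-0.86) it was -0.49 without background correction, -0.54 under median scaling, -0.53 on the scaled values, -0.15 with no filter, and -1.09 to -0.47 with 1 array left out. Without a filter all 38 genes entered, 14 with both KO arrays above and 8 with both below the WT arrays (18.9% and 17.2% of all genes). On the scaled values 5 genes had both KO arrays below, and with 1 array left out 11 to 13 were above and 3 to 7 below (34% to 39.7% and 29.7% to 36% of all genes).

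Of 255 values of single Hox genes under the alternatives, 241 kept their direction and 14, in 5 genes, did not. Hoxa9 was -0.013 on the scaled values, -0.016 as a mean over probes and -0.17 (without WT 1) to 0.64 (without WT 2) with 1 array left out. Hoxa13 was -0.090 on the scaled values, -0.023 as a mean over probes, -0.0070 without KO 2 and -0.24 (without WT 1) to 0.38 (without WT 2) with 1 array left out. Hoxa10 was 0.053 under median scaling, 0.088 without KO 1 and -0.48 (without WT 1) to 0.41 (without WT 2) with 1 array left out. Hoxd9 was 0.019 under median scaling, 0.073 without WT 1 and -0.35 (without KO 1) to 0.19 (without KO 2) with 1 array left out, and Hoxb4 ran from -0.0034 (without WT 2) to 0.46 (without WT 1). The stricter filter left no value for Hoxa4, Hoxa9, Hoxa10, Hoxa13 and Hoxd9. The causes of these shifts were not tested.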
